A study of Populus trichocarpa
Populus deltoides with 74 samples.

Results

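Poplar shoot tips collected in June were set against shoot tips collected in May, both labelled as coming from female wild-type trees of age 1. The 2 groups were chosen by their source names, and they differ in the month alone by their labels. Each group had 2 RNA isolations, called a and b, and each isolation was hybridised to 2 wells, so that 8 of the 74 arrays and 4 of the 37 isolations of the series enter the comparison. The arrays were short oligonucleotides printed in the wells of a microplate and hybridised with RNA labelled with Cy5 as the only colour, and both Populus trichocarpa and Populus deltoides are named as the organism. The series holds 19 groups of buds and shoot tips. The labels do not say which species or cross a tree was, nor whether the isolations came from separate trees or from pooled tips, so p-values measure the spread between isolations, which may be technical. The groups are bulk tissue, in which fewer cells of a type and less RNA per cell cannot be told apart. The deposited table covered 217 oligos, 34 with a gene-like name and 183 with only a clone name or accession. The files do not pair the clone names with genes.

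Shoot tips hold the apical meristem and the youngest leaves and stem, and in poplar they grow during the long days of spring and early summer. Light receptors of the phytochrome and cryptochrome families set the timing of such growth through the circadian clock, and CONSTANS, a zinc finger protein first described in Arabidopsis, is the textbook link between day length and the flowering signal FT. In poplar the CONSTANS and FT pair is also known for its part in the short-day arrest of shoot growth. Auxin, which the growing tip makes and exports, acts through the removal of Aux/IAA proteins, short-lived repressors of auxin-response genes.

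The 2 wells of each June isolation stood apart, and the called oligos described below are therefore also given by well. In June, the 2 wells of an isolation correlated at 0.925 and 0.927 over oligos, less than wells of the same number from different isolations, at 0.963 for wells 1 and 0.946 for wells 2. In May the 2 wells of an isolation correlated at 0.960 and 0.968, and same-numbered wells at 0.955 and 0.965. Differences between the wells of an isolation exceeded 1 on the log2 scale in both isolations for 24 oligos in June and for 5 in May. June wells 1 correlated with the mean of the May tips of age 1 at 0.969 and 0.954, while June wells 2 did so at 0.897 and 0.896. With the June tips of age 6 the order was the other way, at 0.963 and 0.959 for June wells 2 and 0.922 and 0.919 for June wells 1. The same order held with the June tips of age 5, at 0.959 and 0.954 for wells 2 against 0.904 and 0.906 for wells 1. It held by less with the June tips of age 2, at 0.954 and 0.958 against 0.944 and 0.943. The split did not follow the month in every group. June wells 2 also correlated more than wells 1 with the May tips of age 5, at 0.955 and 0.936 against 0.916 and 0.905, and slightly more with the May tips of age 2, at 0.958 and 0.939 against 0.948 and 0.933. June wells 1 correlated more than wells 2 with every group of buds and of basal tips, for the June basal tips of age 5 at 0.921 and 0.920 against 0.844 and 0.836. These correlations are descriptions over 217 oligos that share their probes, and a bright oligo is bright in every array. Wells also stood apart in other groups. In the June tips of age 6, wells of an isolation correlated at 0.932 and 0.939, and same-numbered wells at 0.959 and 0.951. In the May basal tips of age 6 these were 0.944 and 0.942 against 0.963 and 0.956. The order was the reverse in the vegetative buds of age 1, at 0.966 and 0.967 against 0.927 and 0.937. A split between wells was thus not peculiar to the June tips of age 1. The labels give no reason for the difference between wells, and its cause was not tested. Whether each well holds the RNA that its label names could not be checked from the files, and a swap or a mixing of wells would change what the June values at age 1 mean.

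**Figure D1:**
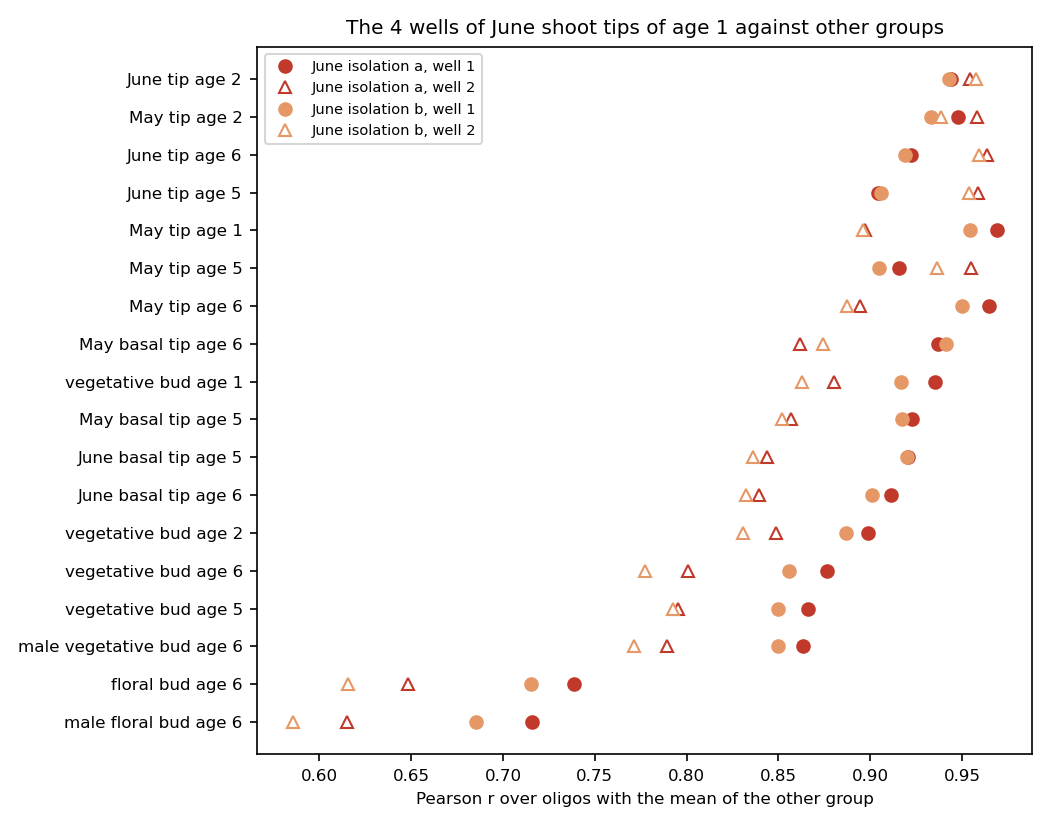
Pearson correlation (x axis) of each of the 4 wells of the June tips of age 1 with the mean of every other group (rows), over oligos, with circles for wells 1 and triangles for wells 2. Wells 1 lie to the right of wells 2 for the May tips of ages 1 and 6 (0.969 and 0.954 against 0.897 and 0.896 at age 1) and for all buds and basal tips. They lie to the left for the June tips of ages 5 and 6, the May tips of age 5 and, by less, the June and May tips of age 2.

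Of the 217 oligos tested with limma, 24 (11.1%) passed an adjusted p of 0.05, of which 14 (6.45%) were higher and 10 (4.61%) lower in June. All 14 that rose were clone-named oligos. Of the 34 gene-named oligos 0 rose and 6 fell, whereas 14 of the 183 clone-named oligos rose and 4 fell. In all, 53 of the 217 oligos had an unadjusted p under 0.05, and the 24 called oligos are among these 53. The balance of directions depended on the scaling of the arrays. On the values as deposited 19 oligos were called, 16 higher and 3 lower in June, and after centring each array on its median 18 were called, 15 higher and 3 lower. Of the 34 gene-named oligos 1, PTCO12, was called lower on each of these scalings, and 0 were called in wells 1 alone, 8 in wells 2 alone and 3 in a fit to the 2 groups alone. The median difference over all oligos was -0.07 after quantile scaling, 0.0025 as deposited and 0.04 after median centring, and the differences below are given without subtracting it. The highest deposited value of an array was 14.29 to 16.12 in June and 13.41 to 14.22 in May. Quantile scaling gives the brightest oligo of every complete array nearly the same value, which bounds differences among the brightest oligos.

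After quantile scaling both CONSTANS-type genes on the array fell in June, and they had the smallest adjusted p among the gene-named oligos. PTCO12 had quantile-normalized log2 intensities of 11.96 and 12.003 in the June isolations, against 13.57 and 13.43 in the May isolations. The groups did not overlap, as was also true of 118 of 213 oligos (55.4%) with all 4 isolations measured. The difference of PTCO12 was -1.51 ± 0.24 (SE, n = 2 and 2 isolations, limma adjusted p = 0.000259). By well, PTCO12 read 13.04 and 13.01 in June wells 1, 10.89 and 11.00 in June wells 2, and 13.43 to 13.71 in the 4 May wells. The June wells 2 thus lay far below May and the June wells 1 only somewhat below it. The difference was -0.54 in wells 1 alone (adjusted p = 0.382) and -2.49 in wells 2 alone (adjusted p = 2.26e-06). PTCO12 kept its call on the values as deposited, with a difference of -1.17 (adjusted p = 0.00606), and with any 1 of the 4 isolations left out.

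PTCO11 had 12.81 and 12.73 in June and 13.98 in both May isolations, a difference of -1.21 ± 0.22 (SE, n = 2 and 2, limma adjusted p = 0.000471). All 4 June wells, at 13.43, 12.19, 13.41 and 12.05, lay below the May wells, at 14.26, 13.71, 14.26 and 13.71. PTCO11 is among the brightest oligos, and its call depended on the scaling. Its May wells 1, at 14.26, stood at the highest value that quantile scaling gives, so the equal May means are set in part by the scaling. The deposited values of its June wells 1 were 13.80 and 13.68, within the May range of 13.41 to 13.89, and only the June wells 2, at 12.77 and 12.67, lay below that range. On the values as deposited the difference was -0.46 (adjusted p = 0.279), and after median centring -0.41 (adjusted p = 0.375). Wells 1 alone gave -0.83 (adjusted p = 0.120) and wells 2 alone -1.59 (adjusted p = 5.58e-05).

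**Figure D2:**
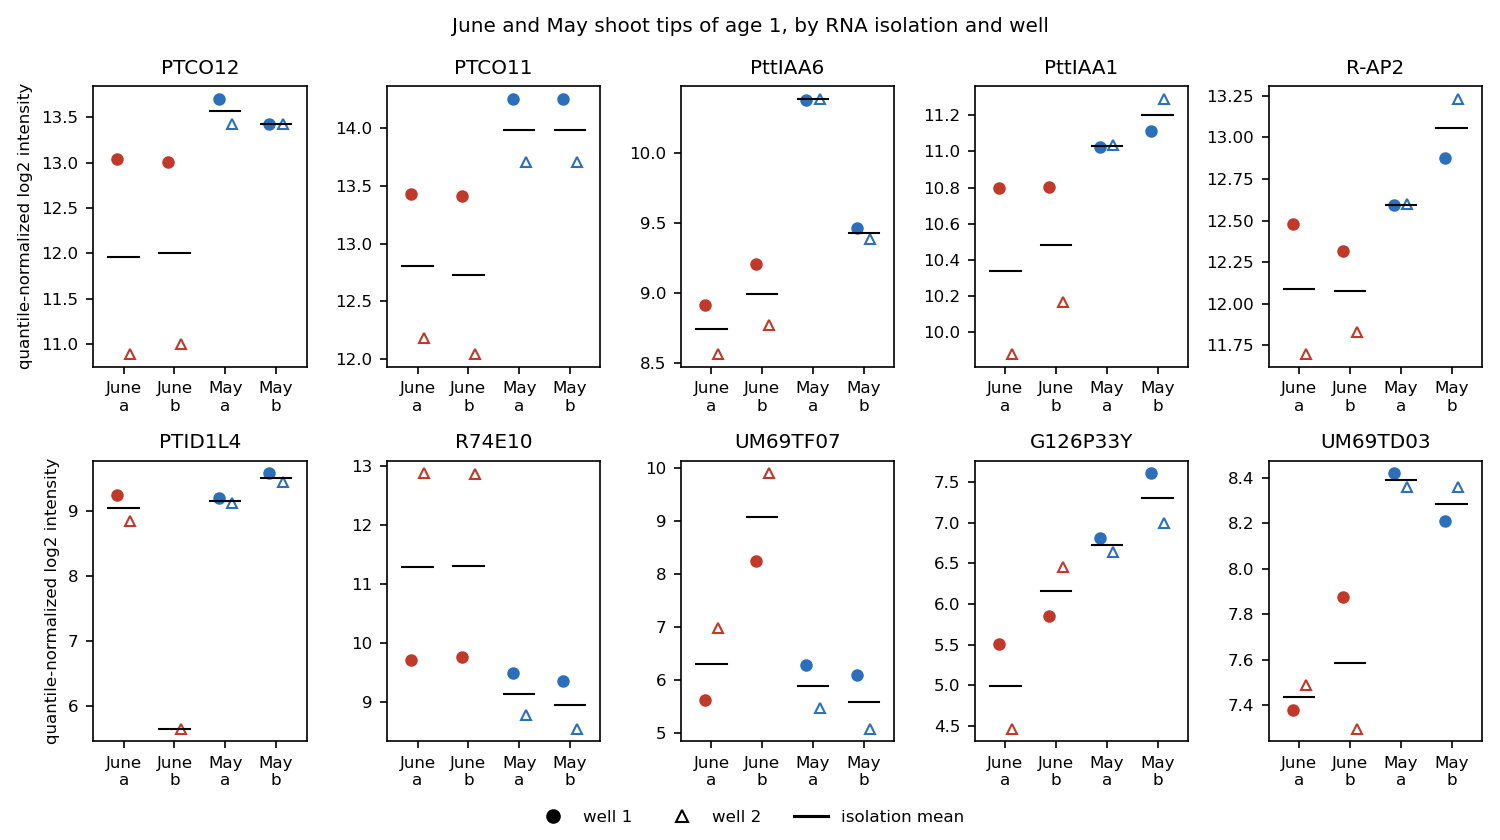
Quantile-normalized log2 intensity (y axis, scaled to each panel) of the 6 called gene-named oligos and 4 clone-named oligos in the 2 June and the 2 May isolations (x axis), with circles for wells 1, triangles for wells 2 and a line at the isolation mean. For PTCO12 the June triangles at 10.89 and 11.00 lie far below the June circles at 13.04 and 13.01, and R74E10 shows the same split upwards, while the May wells of PTCO12 lie between 13.43 and 13.71.

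None of the 4 light receptor genes was called, and all 4 differences were negative, with a median of -0.55 beside -0.07 over all oligos. PHYB2, a phytochrome that reads red and far-red light, had 6.34 and 6.60 in June and 7.38 and 6.96 in May, so that the groups did not overlap. Its difference was -0.70 ± 0.26 (SE, adjusted p = 0.0818). PHYA and PHYB1, of the same family, differed by -0.85 (adjusted p = 0.262) and -0.28 (adjusted p = 0.583). By well the difference of PHYB2 was -0.47 in wells 1 (adjusted p = 0.523) and -0.93 in wells 2 (adjusted p = 0.0679). The blue light receptor gene PTCRY1D differed by -0.41 (adjusted p = 0.329). The 4 differences kept their sign as deposited, after median centring and in wells 2 alone.

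Among the 5 Aux/IAA genes 2 fell in June, beside 10 of 217 oligos (4.61%) over the array, 0 rose, and 3 were not called. PttIAA1 had 10.34 and 10.48 in June and 11.03 and 11.20 in May, a difference of -0.70 ± 0.18 (SE, n = 2 and 2, limma adjusted p = 0.0140). Its 4 June wells, from 9.88 to 10.80, lay below its 4 May wells, from 11.02 to 11.29. The difference was -0.27 in wells 1 alone (adjusted p = 0.530) and -1.14 in wells 2 alone (adjusted p = 0.000173). The call of PttIAA1 was lost as deposited, at -0.44 (adjusted p = 0.238), without June isolation a (adjusted p = 0.103) and without May isolation b (adjusted p = 0.112).

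PttIAA6 had 8.74 and 8.99 in June and 10.39 and 9.43 in May, and its difference of -1.04 ± 0.33 (SE, n = 2 and 2, limma adjusted p = 0.0489) was close to the threshold. The wells differed less for this gene than for PttIAA1, with -0.86 in wells 1 alone (adjusted p = 0.156) and -1.22 in wells 2 alone (adjusted p = 0.0247). Without May isolation a the difference was -0.56 (adjusted p = 0.440), and without June isolation a or b the adjusted p was 0.213 or 0.104. As deposited the difference was -0.98 (adjusted p = 0.0588).

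The other Aux/IAA genes went both ways. PttIAA2 had 10.20 and 10.19 in June and 11.19 and 10.78 in May, with a difference of -0.79 (adjusted p = 0.0709). Its June wells 1, at 10.92 and 10.96, lay within the May range of 10.71 to 11.27, and its June wells 2, at 9.47 and 9.42, lay below it. PttIAA4 and PttIAA5 differed by 0.64 (adjusted p = 0.443) and 0.43 (adjusted p = 0.301). Of the 3 PIN genes, which encode carriers that move auxin out of cells, 0 were called. PTTPIN1 differed by -0.78 (adjusted p = 0.212), PTTPIN2 by 0.09 (adjusted p = 0.930) and PTTPIN3 by -0.90 (adjusted p = 0.237). The wells of PTTPIN3 split in June, with 11.29 in both wells 1 against 9.07 and 9.39 in wells 2, while its May wells ran from 10.84 to 11.41. In wells 2 alone the difference of PTTPIN3 was -2.06 (adjusted p = 0.00266), and in wells 1 alone it was 0.27 (adjusted p = 0.814).

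R-AP2, by its name a member of the AP2 family of plant transcription factors, fell in June. It had 12.09 and 12.07 in June and 12.60 and 13.06 in May, a difference of -0.74 ± 0.20 (SE, n = 2 and 2, limma adjusted p = 0.0168). Its 4 June wells, from 11.70 to 12.48, lay below its 4 May wells, from 12.59 to 13.23. As deposited the June wells reached 12.75 and the May wells began at 12.71, so that they overlapped, and the difference of -0.46 was not called (adjusted p = 0.143). Wells 1 alone gave -0.34 (adjusted p = 0.419) and wells 2 alone -1.15 (adjusted p = 0.000820). The call was lost without June isolation a, June isolation b or May isolation b (adjusted p = 0.0681, 0.0964 and 0.236).

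PTID1L4, named for INDETERMINATE1, a zinc finger regulator of the floral transition in maize, was called lower, and the call rested on 1 well. It had 9.04 and 5.65 in June and 9.16 and 9.51 in May, a difference of -1.98 ± 0.64 (SE, limma adjusted p = 0.0489). June isolation b rests on its well 2 alone, because its well 1 has no value. The 2 wells of June isolation a, at 9.25 and 8.84, differed little from the 4 May wells, at 9.12 to 9.57. Without June isolation b the difference was -0.29 (adjusted p = 0.748), and without May isolation a or b the adjusted p was 0.120 or 0.219. As deposited the difference of PTID1L4 was -1.90 (adjusted p = 0.0664). The related PTID1L1A and PTID1L3 differed by -0.22 (adjusted p = 0.703) and 0.37 (adjusted p = 0.620).

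None of the floral genes was called in the fit to all groups, although PTAG1 was called in other fits. Of 6 floral genes, 5 read lower in all 4 shoot tip isolations than in every floral bud isolation of the series, and PTD, a DEFICIENS homolog, overlapped with them. No such count was made over all oligos, so nothing is read from it about floral material in the tips. PTAG1, a homolog of the stamen and carpel gene AGAMOUS, had 4.46 and 4.08 in June and 6.02 and 5.65 in May, against 9.46 to 11.23 in floral buds and 4.35 to 5.98 in vegetative buds. Its groups did not overlap, and its difference was -1.57 ± 0.58 (SE, adjusted p = 0.0818). It was called in a fit to the 2 groups alone (limma adjusted p = 0.0436). It was also called with same-numbered wells averaged over isolations, a setting added after seeing the data (limma adjusted p = 0.0250). That setting takes well numbers as the replicates, so its p-value measures the spread between wells and not between isolations. Wells 1 alone gave -1.14 (adjusted p = 0.523) and wells 2 alone -1.99 (adjusted p = 0.0763). A well of each June isolation of PTAG1 stood at 3.15, the lowest value that quantile scaling gives, so that the size of the difference depends on dim wells. PTAG2 and PTD differed by 0.46 (adjusted p = 0.529) and -0.14 (adjusted p = 0.837). The meristem identity genes PTLF, PTAP1-2A and PTAP1-1B, homologs of LEAFY and APETALA1, differed by 0.08 (adjusted p = 0.833), 0.69 (adjusted p = 0.580) and 0.83 (adjusted p = 0.443). PTLF had 8.78 and 8.75 in June and 8.84 and 8.53 in May, with floral buds at 10.57 to 10.84 and vegetative buds at 8.32 to 9.62. No oligo of the array is named for a gene that marks the shoot meristem, so the labelled tissue could not be checked against markers of its own.

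The remaining 10 gene-named oligos gave 0 calls. GA20-OX, of gibberellin synthesis, and PttGA2-OX, of gibberellin inactivation, differed by 0.29 (adjusted p = 0.754) and 0.55 (adjusted p = 0.408). PCEN-L, a relative of CENTRORADIALIS, which keeps snapdragon inflorescences indeterminate, and PMFT, of the same protein family, differed by -0.38 (adjusted p = 0.448) and -0.26 (adjusted p = 0.471). The homeobox genes HB1 and HB2 differed by -0.27 (adjusted p = 0.583) and -0.24 (adjusted p = 0.529). PTB2, PTBF1, PTIR1 and PTPGM differed by 0.45, -0.60, 0.69 and -0.19 (adjusted p = 0.529, 0.282, 0.472 and 0.524). PTPGM is an oligo whose wells went opposite ways. Its June wells 1, at 11.24 and 11.14, lay in the upper part of the May range of 10.61 to 11.24, and its June wells 2, at 10.14 and 10.22, lay below it. Its difference was 0.55 in wells 1 alone (adjusted p = 0.123) and -0.93 in wells 2 alone (adjusted p = 0.00165).

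**Figure D3:**
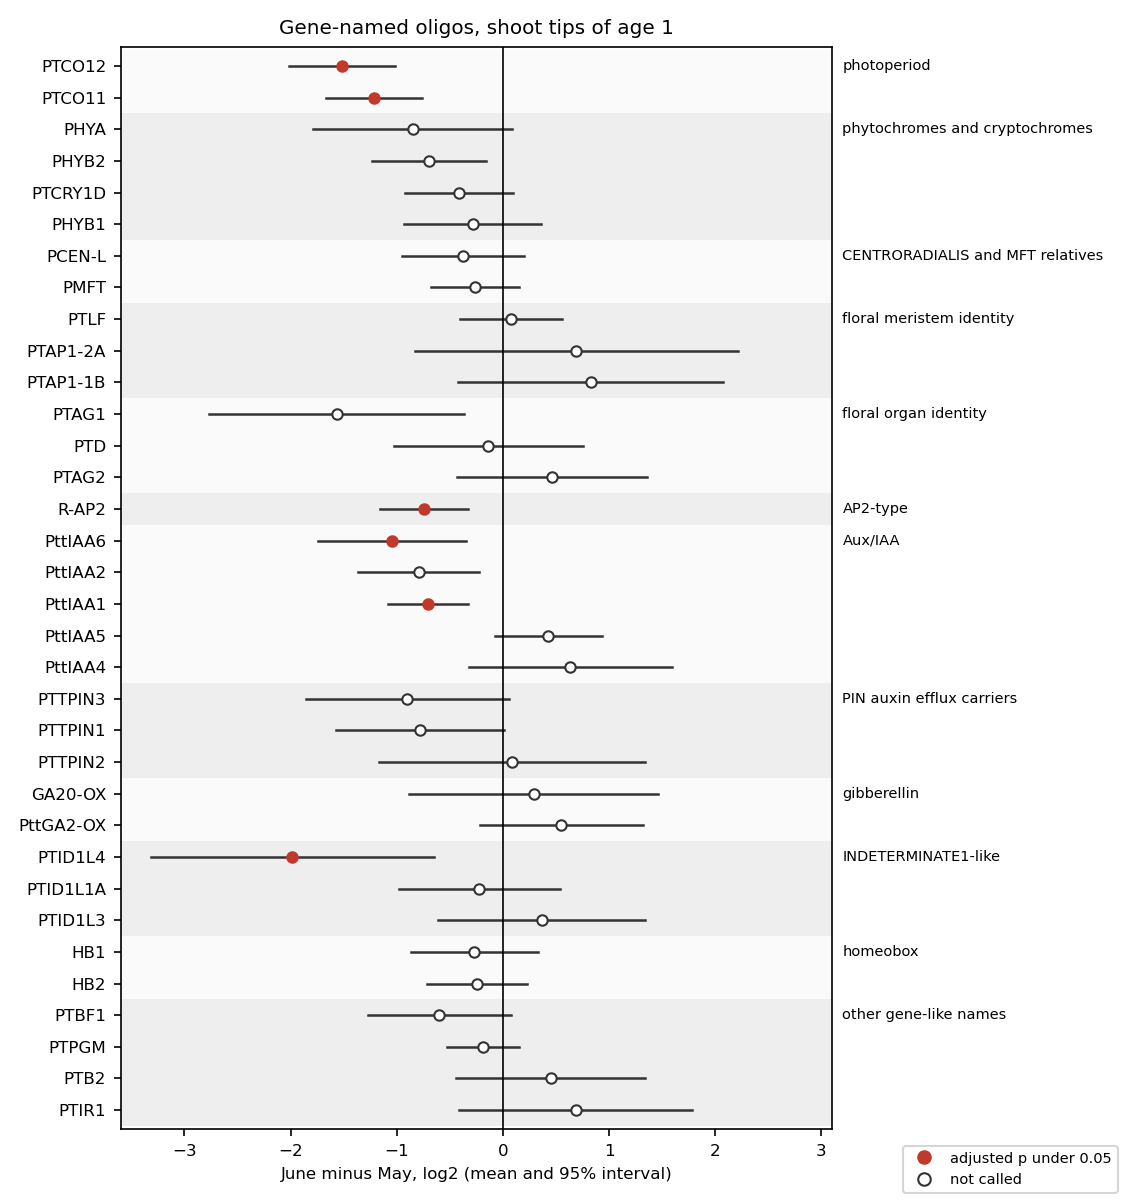
June minus May on the log2 scale (x axis) for the 34 gene-named oligos, grouped by list (rows), with the mean difference as a point and its 95% interval as a line. The 6 called oligos, filled, all lie below 0, from -0.70 for PttIAA1 to -1.98 for PTID1L4, and PTID1L4 has the widest interval of these 6.

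Of the called clone-named oligos with non-overlapping isolations, the 2 that rose most and the 2 that fell most differed in how far they rested on 1 well or isolation. R74E10 had 11.29 and 11.31 in June and 9.13 and 8.95 in May, a rise of 2.26 ± 0.63 (SE, n = 2 and 2, limma adjusted p = 0.0207). Its June wells 1 read 9.71 and 9.75, near the May wells at 8.55 to 9.48, and its June wells 2 read 12.87 and 12.86. The difference was 0.32 in wells 1 alone (adjusted p = 0.837) and 4.20 in wells 2 alone (adjusted p = 0.000146), and on leaving out any 1 isolation its adjusted p was 0.0713 to 0.112.

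UM69TF07 rose by 1.95 ± 0.54 (SE, n = 2 and 2, limma adjusted p = 0.0196), with 6.30 and 9.08 in June and 5.88 and 5.59 in May. June isolation b carried most of it, and without that isolation the difference was 0.57 (adjusted p = 0.504). Without May isolation a or b the adjusted p of UM69TF07 was 0.0669 or 0.112, and by well its difference was 0.74 in wells 1 (adjusted p = 0.582) and 3.17 in wells 2 (adjusted p = 0.00123). After median centring its adjusted p was 0.0504.

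Of the falls, G126P33Y had 4.99 and 6.16 in June and 6.73 and 7.30 in May, a difference of -1.44 ± 0.46 (SE, n = 2 and 2, limma adjusted p = 0.0466). Here the wells differed little, at -1.53 in wells 1 (adjusted p = 0.123) and -1.36 in wells 2 (adjusted p = 0.101). Without June isolation a, May isolation a or May isolation b its adjusted p was 0.401, 0.0669 or 0.282, and without June isolation a its difference was -0.86. As deposited its adjusted p was 0.0598. UM69TD03 had 7.43 and 7.58 in June and 8.39 and 8.28 in May, a difference of -0.83 ± 0.24 (SE, n = 2 and 2, limma adjusted p = 0.0241). Its wells gave -0.69 (wells 1, adjusted p = 0.126) and -0.97 (wells 2, adjusted p = 0.0153), all 4 June wells lay below all 4 May wells, and on leaving out any 1 isolation its adjusted p was 0.0813 to 0.149.

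The 2 oligos called in wells 1 alone also belonged to the 24, and they were chosen here after their values were seen. V017G04 had 11.32 and 11.43 in June and 9.47 and 10.25 in May. Its rise was nearly equal in both wells, at 1.55 in wells 1 (adjusted p = 0.0107) and 1.48 in wells 2. UM54TC12 had 13.98 in both June isolations and 12.24 and 12.67 in May, and its rise was 1.21 in wells 1 (adjusted p = 0.0159) and 1.83 in wells 2. UM54TC12 gave the highest value of both June wells 2, deposited as 16.12 and 15.89, and quantile scaling set both at 14.26. Its rise of 1.52 after scaling is thus bounded by the scaling.

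Over all 24 called oligos, 23 differed in the same direction in wells 1 and wells 2, beside 142 of 216 oligos (65.7%) over the array, and 21 (87.5%) differed more in wells 2, beside 144 of 216 (66.7%). The calls were made on the mean of both wells, so nothing is read from these counts. The median size of the difference was 0.669 in wells 1 and 1.71 in wells 2 for the called oligos, and 0.335 in wells 1 and 0.508 in wells 2 for all oligos. Wells 1 alone gave 2 calls and wells 2 alone 40, of which 20 were among the 24. Of the 22 called oligos with values in all 8 wells, 18 had their 4 June wells apart from their 4 May wells, beside 42 of 196 oligos (21.4%) over the array. Of these 18, 10 were higher and 8 lower in June. The calls were made on the means of these same wells, so nothing is read from the 18 of 22 either. The 2 wells of an isolation are also not separate replicates of a group.

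**Figure D4:**
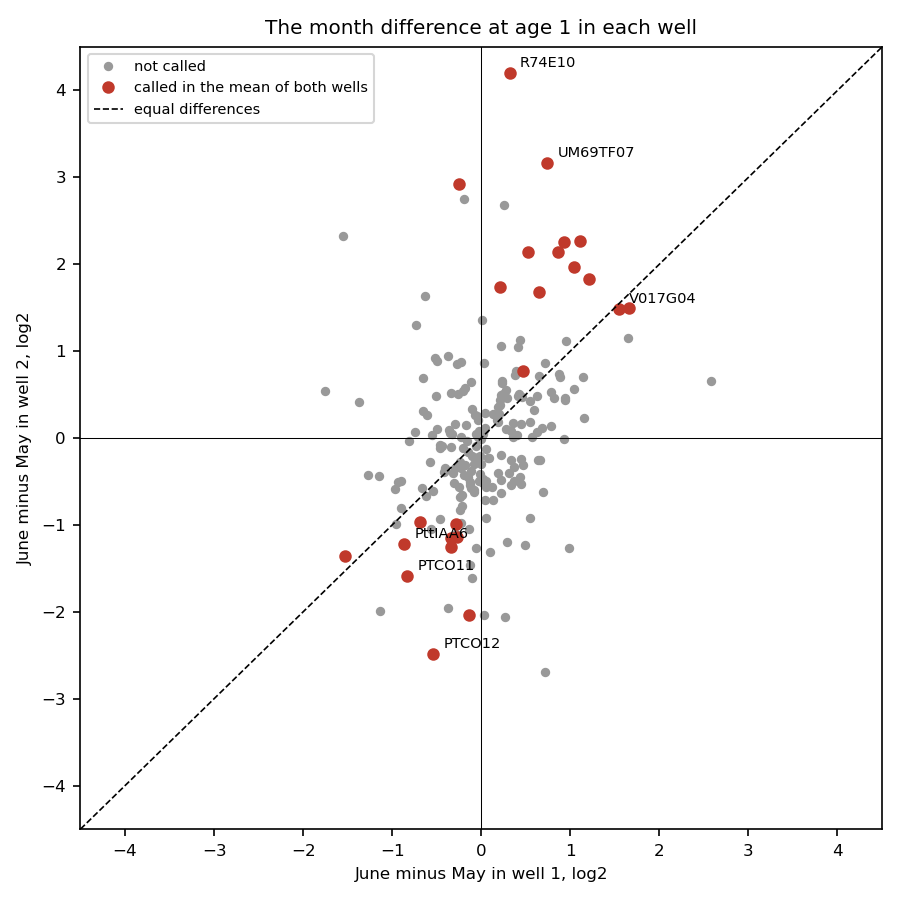
June minus May on the log2 scale in wells 1 (x axis) and wells 2 (y axis) for each oligo, with the 24 called oligos in red and the line of equal differences dashed. R74E10, at 0.32 and 4.20, and PTCO12, at -0.54 and -2.49, lie far from the line, while V017G04, at 1.55 and 1.48, lies on it.

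Whether the month difference of these 1-year-old tips recurs in older trees was asked at ages 2, 5 and 6, with tips not labelled basal. The comparisons below that set age 1 against another age share the June and May isolations of age 1. The level of PTCO12 in the June tips of age 1 (mean 11.98) was above the June means of ages 2, 5 and 6, which ran from 11.03 to 11.66. That placement depended on the well, since its June wells 1 of age 1 lay above this range and its June wells 2 below it. The range is made of means over both wells, so single wells were not set against like values here. Its May mean of 13.50 lay between the May means of 11.91 at age 2 and 13.91 at age 6. In the month comparisons of the other ages 21 of 217 oligos (9.68%) were called at age 2, 13 (5.99%) at age 5 and 67 (30.9%) at age 6. June minus May of PTCO12 was -1.51 at age 1, -0.25 at age 2 (adjusted p = 0.520), -0.95 at age 5 (adjusted p = 0.0620) and -2.42 at age 6 (adjusted p = 1.56e-07), with 1 June isolation at age 5. PTCO11 behaved similarly, with -1.21 at age 1, -0.06 at age 2 (adjusted p = 0.842), -0.29 at age 5 (adjusted p = 0.551) and -1.51 at age 6 (adjusted p = 1.29e-05). The low differences of both genes at age 2 came with May means of 12.74 for PTCO11 and 11.91 for PTCO12, below the May means of age 1.

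PttIAA1 was called lower in June at all 4 ages, with a difference of -0.70 at age 1, -0.97 at age 2 (adjusted p = 0.00183), -1.09 at age 5 (adjusted p = 0.00368) and -0.66 at age 6 (adjusted p = 0.00837). PttIAA6 differed by -1.04 at age 1, -0.39 at age 2 (adjusted p = 0.470), -0.46 at age 5 (adjusted p = 0.537) and -1.04 at age 6 (adjusted p = 0.0199). R-AP2 was called at age 1 alone, with -0.74, against -0.28 at age 2, -0.0054 at age 5 and 0.0082 at age 6 (adjusted p = 0.361, 0.997 and 0.984). The difference of R-AP2 between ages was not called either (-0.46, adjusted p = 0.355 against age 2, and -0.75, adjusted p = 0.170 against age 6), so that a difference between ages was not shown for it. Its May mean of age 1, at 12.83, stood above the May means of the other ages, at 11.75 to 12.07.

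**Figure D5:**
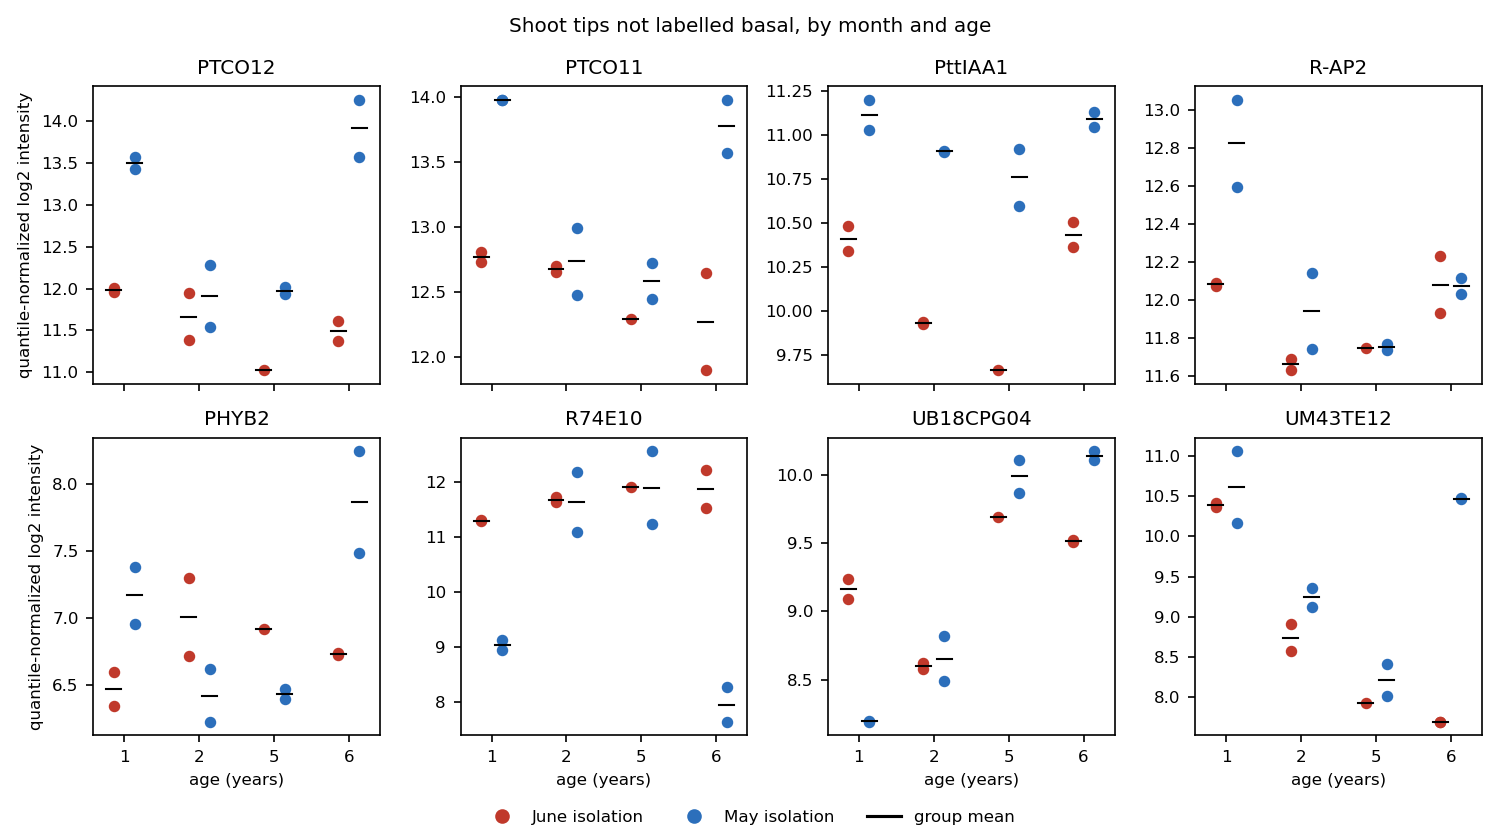
Quantile-normalized log2 intensity (y axis, scaled to each panel) of 8 oligos in shoot tips not labelled basal, by age in years (x axis), with June isolations in red, May isolations in blue and lines at group means; June of age 5 has 1 isolation. PTCO12 and PTCO11 separate by month at ages 1 and 6 and much less at age 2, PttIAA1 lies lower in June at each age, and UB18CPG04 lies higher in June at age 1 and lower at age 6.

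The difference between the month differences was tested directly. Against age 2, 19 of 217 oligos (8.76%) were called, 11 with a more positive and 8 with a more negative June minus May at age 1. Among them were PTCO12 (-1.26 ± 0.34, SE, limma adjusted p = 0.0206), PTCO11 (-1.15 ± 0.31, adjusted p = 0.0184) and PHYB2 (-1.28 ± 0.37, adjusted p = 0.0261). PHYB2 differed by -0.70 at age 1 and by 0.58 at age 2, neither of them called (adjusted p = 0.0818 and 0.150). PTCO11 and PTCO12 rested on the scaling here. As deposited PTCO11 gave 0.15 (adjusted p = 0.828) and PTCO12 -0.62 (adjusted p = 0.312), whereas PHYB2 gave -1.39 (adjusted p = 0.0138). In wells 1 alone none of the 3 was called, with -0.38 for PTCO12 (adjusted p = 0.649), -0.85 for PTCO11 (adjusted p = 0.217) and -0.92 for PHYB2 (adjusted p = 0.350).

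Leaving out isolations of the age 2 contrast moved these calls. PHYB2 lost its call without June isolation a or May isolation a of age 1 and without June isolation b or May isolation a of age 2 (adjusted p = 0.107, 0.127, 0.160 and 0.151). PTCO12 lost it without June isolation a or b or May isolation a of age 1 (adjusted p = 0.0522, 0.0525 and 0.0736) and without June isolation b or May isolation a of age 2 (adjusted p = 0.139 and 0.177). PTCO11 lost it without June isolation b or May isolation a of age 1 or May isolation a of age 2 (adjusted p = 0.0527, 0.0591 and 0.142). A fit to the 4 groups of this contrast alone gave 0 calls, with a smallest adjusted p of 0.0612.

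The clone-named oligos V031H01 and R07C07 had the largest positive differences against age 2, at 2.35 ± 0.47 (limma adjusted p = 0.00182) and 2.32 ± 0.39 (limma adjusted p = 0.000583). Their June means of age 1, at 7.24 and 10.53, lay within the range of the June means of ages 2, 5 and 6. Their May means of age 1, at 5.90 and 8.94, were the lowest of the 8 groups of tips not labelled basal. R07C07 kept its call as deposited and in each well alone, with 1.87 in wells 1 and 2.77 in wells 2, while V031H01 gave 1.14 in wells 1 (adjusted p = 0.217) and 3.56 in wells 2. The largest negative ones were I012P09P at -1.50 ± 0.45 (limma adjusted p = 0.0361) and M103H01 at -1.47 ± 0.28 (limma adjusted p = 0.00117). M103H01 kept its call as deposited and in each well alone, and I012P09P gave -0.61 in wells 1 (adjusted p = 0.573). I012P09P was not called as deposited, at -1.34 (adjusted p = 0.0786), nor after median centring, at -1.15 (adjusted p = 0.131). I012P09P lost its call without each isolation of age 1 and without June isolation b or May isolation a of age 2 (adjusted p = 0.0619 to 0.184).

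Against age 6, 6 of 217 (2.76%) were called, all with a more positive difference at age 1 and all clone-named. UM43TE12 led them. It had 10.36 and 10.42 in June and 10.16 and 11.05 in May at age 1, with overlapping groups, whereas at age 6 it had 7.70 in both June isolations and 10.47 and 10.46 in May. The 2 month differences differed by 2.55 ± 0.31 (limma adjusted p = 1.05e-05), and by 2.56 in wells 1 alone (adjusted p = 1.48e-05). M118F07 differed by 1.97 (limma adjusted p = 0.0267), with 3.49 in wells 1 and 0.45 in wells 2 (adjusted p = 0.873). M118F07 lost its call without June isolation b or May isolation a of age 1, either June isolation of age 6 or May isolation b of age 6 (adjusted p = 0.0646 to 0.145). Of the gene-named oligos 0 were called, and PTCO12 differed by 0.90 (adjusted p = 0.170) between the 2 ages and PTCO11 by 0.29 (adjusted p = 0.654).

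Against the mean of the month differences at ages 2 and 6, 8 of 217 oligos (3.69%) were called, 6 with a more positive and 2 with a more negative difference at age 1, and 0 of them were gene-named. UB60BPD08 had 8.74 and 8.81 in June and 8.26 and 8.12 in May at age 1, while at ages 2 and 6 its June means of 7.98 and 7.96 lay below its May means of 8.89 and 8.91. The difference was 1.51 ± 0.41 (limma adjusted p = 0.0461), and that of UM43TE12 was 1.42 ± 0.27 (limma adjusted p = 0.00349). R67C05 and V047A09 gave the 2 negative calls, at -1.22 (limma adjusted p = 0.0455) and -0.72 (limma adjusted p = 0.0478). By well, UB60BPD08 gave 1.04 in wells 1 (adjusted p = 0.279) and 1.98 in wells 2 (adjusted p = 0.00460). R67C05 and V047A09 were called in neither well alone, with -1.05 and -1.01 for R67C05 (adjusted p = 0.126 and 0.0999) and -0.76 and -0.69 for V047A09 (adjusted p = 0.100 and 0.108). UM43TE12 gave 1.47 in wells 1 (adjusted p = 0.00314) and had no value in wells 2 alone. The calls of UB60BPD08, R67C05 and V047A09 were near the threshold, and the count of calls was 1 to 13 on leaving out any 1 isolation and 1 in a fit to the 6 groups alone. On leaving out 1 of the 12 isolations the calls of UB60BPD08, R67C05 and V047A09 held in 3, 4 and 3 of 12 fits, with adjusted p up to 0.138, 0.214 and 0.242, and that of UM43TE12 in 11, the exception being May isolation a of age 1 (0.97, adjusted p = 0.0863).

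UB18CPG04 was called in the comparison at age 1 and in all 3 comparisons between ages, and it was chosen after its values were seen. At age 1 it had 9.09 and 9.24 in June and 8.19 and 8.20 in May, a rise of 0.97 ± 0.19 (SE, n = 2 and 2, limma adjusted p = 0.000824), while at age 6 it was lower in June, with a difference of -0.62 (adjusted p = 0.0126). The difference between these was 1.60 ± 0.26 (limma adjusted p = 0.000299), and that against age 2 was 1.03 ± 0.26 (limma adjusted p = 0.0148). The June mean of UB18CPG04 at age 1, 9.17, lay within the June means of ages 2, 5 and 6, from 8.60 to 9.69. Its May mean at age 1, 8.19, was the lowest of the 8 groups of tips not labelled basal. The rise rested on wells 2. June wells 1 read 8.38 and 8.48, just above the May wells at 8.03 to 8.37, and June wells 2 read 9.80 and 9.99. In wells 1 alone the difference of UB18CPG04 was 0.21 (adjusted p = 0.649) and in wells 2 alone 1.73 (adjusted p = 1.44e-05), and in wells 1 alone none of the differences between ages was called, with 0.81 against age 6 (adjusted p = 0.0944), 0.39 against age 2 (adjusted p = 0.539) and 0.60 against the mean of ages 2 and 6 (adjusted p = 0.246). The call against age 2 was lost without June isolation b or May isolation a of age 1 (adjusted p = 0.0527 and 0.0535) and without May isolation a of age 2 (adjusted p = 0.0948). It was also lost in a fit to the 4 groups alone (adjusted p = 0.106) and with same-numbered wells averaged (adjusted p = 0.0768).

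A grouping of the isolations made from the same values could not be separated from the month at this age. When the 37 isolations were grouped by the pattern of well 2 minus well 1 over oligos into 5 sets, a number chosen for the grouping, these hybridisation sets had 7, 10, 9, 2 and 9 members, and the set of 2 held the 2 June isolations of age 1 alone. No label or header gives such a set, a plate or a date. With the set as a fixed term the June minus May difference at age 1 cannot be estimated, so that with this grouping set and month cannot be told apart. With the set as a random block (fitted correlation within a set 0.0984) 18 of the 24 calls remained, 12 higher and 6 lower, and no further oligo was called. The June isolations of age 1 are alone in their set, so this fit could not remove a set effect either. Nothing about the set is read from the calls that remained. PTCO12 and PTCO11 were among the 18 (adjusted p = 0.00104 and 0.00127), and PttIAA6 and PTID1L4 were not (adjusted p = 0.0894 for each).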

How the data were processed

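RNA of buds and shoot tips was hybridised with Cy5 as the only colour. The authors deposited a single value per oligo and array, read here as a log2 intensity from its range. What was done to make these deposited log2 values (log base, scanner settings, background correction, duplicate spots, earlier normalization) is not given in the sources used here. Array medians ran from 8.05 to 8.79, a range of 0.735 that exceeded the 0.2 allowed, so arrays were quantile-normalized, and the 2 wells of an isolation were averaged. A mean for each of 19 groups was fitted to 37 isolations with limma 3.58.1 in R 4.3.3 (18 residual degrees of freedom, 2-sided moderated tests, random blocks with statmod 1.5.0). P-values were adjusted by Benjamini-Hochberg within each comparison (217 oligos), with calls made at an adjusted p under 0.05. The median residual SD was 0.297. Missing values (26 of the 8 arrays) stayed missing, and 4 oligos lacked an isolation. Signal over background cannot be judged, and the number of arrays limits the precision.

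The groups and gene lists were chosen with earlier results of these data known. All gene-named oligos are accounted for by list, with called members in full. Of clone-named oligos the 2 largest rises and 2 largest falls among called oligos with non-overlapping isolations are named, and of the differences between ages the called gene-named oligos and 2 clone names each way. Of 217 IDs, 0 matched the RefSeq gene table. Alternatives covered scaling, wells, the groups fitted, the variance prior, filters, isolations left out and blocks. Averaging same-numbered wells, which takes well numbers instead of isolations as replicates, was added after seeing the data.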

Additional observations from a re-analysis of the deposited data

Results flagged for a closer look

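The month difference at age 1 differed from that at another age for several oligos, by a test of the difference itself in limma. Against age 2 this held for the phytochrome gene PHYB2 (-1.28, adjusted p = 0.0261), for PTCO12 (-1.26, adjusted p = 0.0206) and for PTCO11 (-1.15, adjusted p = 0.0184). The PTCO11 value did not keep its sign on other scalings. Among the clone-named oligos it held for V031H01 (2.35), R07C07 (2.32), I012P09P (-1.50), M103H01 (-1.47) and UB18CPG04 (1.03). Against age 6 it held for UM43TE12 (2.55), M118F07 (1.97) and UB18CPG04 (1.60). Against the mean of ages 2 and 6 it held for UB60BPD08 (1.51), UM43TE12 (1.42), R67C05 (-1.22), V047A09 (-0.72) and UB18CPG04 (1.31). All of these values share the June and May isolations of age 1, so they are not independent of each other. As deposited PTCO12 and I012P09P were not called against age 2 (-0.62 and -1.34, limma adjusted p = 0.312 and 0.0786). R67C05 was not called as deposited against the mean (-1.05, limma adjusted p = 0.0778). A fit to the 4 groups of the age 2 contrast alone gave 0 calls. With the isolation letter as a block, UB60BPD08, R67C05 and V047A09 were not called against the mean. The same held with the hybridisation set as a block, a grouping made from these same values that no label gives. In wells 1 alone PHYB2, PTCO12, PTCO11, V031H01 and I012P09P were not called against age 2, UB60BPD08, R67C05 and V047A09 were not called against the mean of ages 2 and 6, and UB18CPG04 was called in none of its 3 comparisons. R07C07 (1.87) and M103H01 (-1.29) were called in wells 1 alone against age 2, UM43TE12 (2.56) and M118F07 (3.49) against age 6, and UM43TE12 (1.47) against the mean.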

How the results depend on the processing

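June against May at age 1 gave 24 calls, and 2 in wells 1 alone, 40 in wells 2 alone, 13 in a fit to its 2 groups alone and 13 to 16 with 1 isolation left out, where the lone isolation of a group is assumed to vary like the other groups. Averaging same-numbered wells over isolations, chosen after seeing the data, gave 35 calls, 19 of them among the 24. The p-values of that setting measure the spread between wells and not between isolations. The other settings gave 18 to 28 calls. The difference against age 2 gave 19 calls, with 10 in wells 1 alone, 35 in wells 2 alone, 0 in the fit to its groups alone and 10 to 24 with 1 isolation left out. Against age 6 it gave 6, with 11 when wells entered as separate arrays, 20 in wells 1 alone, 3 in wells 2 alone, 2 without oligos that have a missing value, 12 when same-numbered wells were averaged and 3 to 7 with 1 isolation left out. Against the mean of ages 2 and 6 it gave 8, with 14 for wells as separate arrays, 1 in the fit to its groups alone, 4 with the hybridisation set as a random block, 13 with age 5 added, 14 for same-numbered wells averaged and 1 to 13 with 1 isolation left out. Some of these settings had fewer samples or oligos, and the cause of the shifts was not tested.

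With the isolation letter as a replicate block, June against May gave 23 calls, the differences against ages 2 and 6 gave 20 and 5, and that against their mean gave 4 in place of 8, with UB60BPD08, R67C05 and V047A09 losing theirs (adjusted p = 0.0584, 0.0542 and 0.0606). The labels do not say that a letter pairs samples, and the a minus b deviations of June and May correlated at 0.0187 over oligos, so the letters were not taken as pairs.

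Signs changed for the following oligos, of which only PTCO11 against age 2 had been called. PTCO11 against age 2 was 0.15 as deposited and 0.34 after median centring. In June against May, wells 1 alone turned GA20-OX (-0.27), PTD (0.99), PTID1L1A (0.12), PTPGM (0.55), PTTPIN2 (-0.031) and PTTPIN3 (0.27), and wells 2 alone turned PTAG2 (-0.011). As deposited PTPGM was 0.01 and PTTPIN2 -0.04, and after median centring PTPGM was 0.06. With 1 isolation left out, ranges that crossed 0 were -0.68 to 1.26 for GA20-OX, -0.74 to 0.21 for HB1, -0.52 to 0.25 for PTD, -0.68 to 0.24 for PTID1L1A, -0.078 to 0.24 for PTLF, -0.13 to 1.52 for PTAP1-2A, -0.051 to 0.78 for PTID1L3 and -0.73 to 0.91 for PTTPIN2.

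The comparison rests on 2 isolations a group, the log base is not stated, no background values show which oligos are above background, and the June wells of age 1 differ between themselves more than the isolations do. With the grouping into 5 hybridisation sets, which was made from the same values and which no label gives, set and month cannot be told apart at this age.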
